A study of Mus musculus with 4 samples.

Results

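The cells described here are the Gip-expressing K cells of the mouse small-intestinal crypt, 347 of the 29731 cells that passed quality control. They were chosen by a rule on measured transcripts. Cells entered with 500 or more genes detected and with mitochondrial transcripts at 20% or less of their unique molecular identifiers (UMIs, each counting 1 captured transcript). The Gip level of a K cell had to reach 20 CP10K, which are UMIs per 10000 of the cell's total, and Gip had to be the highest of the 6 hormone transcripts Gcg, Gip, Cck, Sst, Ghrl and Nts. Cells with 2 or more UMIs of Neurog3, the transcription factor of endocrine progenitors, were left out. Because these 7 genes chose the cells, their levels are given as description only.

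K cells are enteroendocrine cells, the hormone-secreting cells scattered through the gut lining. They arise in the crypt from progenitors that transiently express Neurog3, and they are most frequent in the proximal small intestine. Their product, glucose-dependent insulinotropic polypeptide (GIP), is an incretin: it is released when glucose and fat are absorbed and raises insulin secretion from pancreatic beta cells. Pdx1, Pax6 and Rfx6 are transcription factors needed for Gip expression or for the K cell lineage.

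The study profiled epithelial cells of mouse small-intestinal crypts by droplet single-cell RNA sequencing, in the setting of sleep deprivation. The groups are named 2D and 0D, with 2 libraries each, numbered 1 and 2. The series text places the samples before and after a period of sleep deprivation. The labels used here do not spell out the letter D, and they state no strain, genotype, sex, age or agent, nor whether the libraries of a group came from separate animals. Crypts were released from the tissue with 10 mM EDTA in the cold and passed through a 70 μm strainer. The p-values between 2D and 0D rest on how far the libraries of a group lie apart. Where K cells are set against other hormone cells of the same libraries, they rest on how evenly that difference recurs over libraries. In both cases the spread may be technical.

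The 2D-1 and 2D-2 libraries held 88 and 126 K cells, against 67 and 66 in 0D-1 and 0D-2. Their summed depth was 794492 and 644912 UMIs in 2D-1 and 2D-2, against 578108 and 470849 in 0D-1 and 0D-2. The median K cell had 6031.5 and 4204.5 UMIs in 2D-1 and 2D-2, against 5494 and 5756 in 0D-1 and 0D-2. The K cells were thus shallower than the median cell that passed quality control, which had 11117 and 9247.5 UMIs in 2D-1 and 2D-2, against 12115.5 and 13340.5 in 0D-1 and 0D-2. Over all pairs of libraries 90 barcodes of cells passing quality control recurred, at most 16 in a pair, and none of them was shared between K cells. The summed profiles of any 2 K cell libraries differed by a root mean square of 0.474 to 0.558 on the log2 scale, and the pair 0D-1 and 2D-1 was the closest.

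The promoters of Gip, Cck and Gcg, the hormones of K cells and of the classes they are compared with below, are shown because a K cell is defined by transcription from the Gip promoter. Each is the 250 bases before the gene's annotated start in RefSeq, written 5′ to 3′ along the gene's strand, on the GRCm38.p6 build. The Gip window lies at chr11:96024295-96024544 on the plus strand, the Cck window at chr9:121495695-121495944 on the minus strand, and the Gcg window at chr2:62483654-62483903 on the minus strand. Capitals mark GATA, the core recognised by GATA factors, and TAAT, the core recognised by homeodomain factors such as Pdx1 and Isl1, each on either strand (TATC and ATTA on the other one).
Gip: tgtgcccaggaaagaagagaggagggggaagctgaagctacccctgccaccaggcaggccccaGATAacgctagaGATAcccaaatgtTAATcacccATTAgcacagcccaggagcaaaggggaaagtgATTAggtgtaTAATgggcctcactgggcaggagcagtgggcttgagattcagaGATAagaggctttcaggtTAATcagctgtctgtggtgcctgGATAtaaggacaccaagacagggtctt
Cck: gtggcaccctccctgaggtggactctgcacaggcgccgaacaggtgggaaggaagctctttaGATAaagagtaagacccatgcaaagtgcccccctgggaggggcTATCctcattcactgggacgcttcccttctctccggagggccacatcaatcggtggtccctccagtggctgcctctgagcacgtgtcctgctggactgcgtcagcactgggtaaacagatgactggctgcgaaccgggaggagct
Gcg: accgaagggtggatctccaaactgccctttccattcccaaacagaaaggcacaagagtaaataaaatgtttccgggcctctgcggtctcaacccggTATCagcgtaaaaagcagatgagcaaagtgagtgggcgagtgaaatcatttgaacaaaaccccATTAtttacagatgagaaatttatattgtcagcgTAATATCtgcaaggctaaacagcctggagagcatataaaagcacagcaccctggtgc
The Gip window held 4 GATA matches and 5 TAAT matches, none of them overlapping. The Cck window held 2 GATA matches and 0 TAAT matches. The Gcg window held 2 of each, with 1 overlap. Over 32851 mouse promoter windows of the same length, 53.6% held at least 1 GATA match and 54.9% at least 1 TAAT match. At least as many GATA matches as in Gip occurred in 3.52% of the windows, and at least as many TAAT matches in 5.54%. A match is a run of letters and was not tested for binding.

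Gip itself (ENSMUSG00000014351, chr11:96024545-96030831 on the plus strand, GRCm38) was among the most abundant transcripts of the cells it chose. The median K cell carried 690 and 755 CP10K of Gip in 2D-1 and 2D-2, against 666 and 587 CP10K in 0D-1 and 0D-2. Summed over cells, Gip made up 6.44% and 8.89% of all K cell UMIs in 2D-1 and 2D-2, against 6.50% and 8.23% in 0D-1 and 0D-2. In 1 cell of 2D-2 it reached 33.5% of all UMIs. The level per cell ran between 20.7 and 2747 CP10K in 2D-1 and between 24.3 and 3351 CP10K in 2D-2. It ran between 21.7 and 3124 CP10K in 0D-1 and between 34.2 and 2988 CP10K in 0D-2, so the groups overlapped over nearly the whole range. Cells at 1000 CP10K or more made up 40.9% and 42.1% of the K cells in 2D-1 and 2D-2, against 35.8% and 40.9% in 0D-1 and 0D-2.

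**Figure D1:**
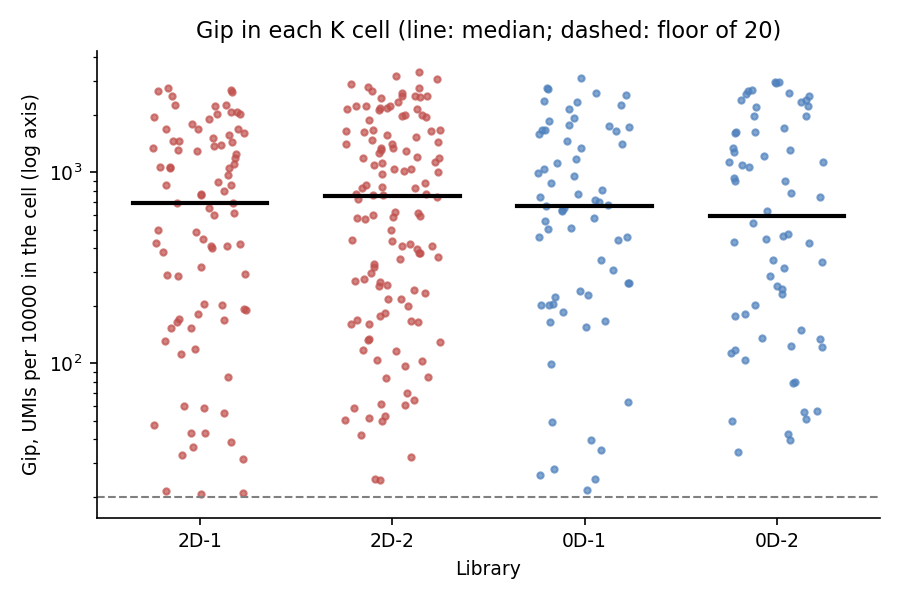
Gip level of each K cell (CP10K, log axis) by library, 2D libraries left of 0D libraries; each point is a cell, the horizontal line is the median of the library and the dashed line is the floor of 20 CP10K used to choose the cells. Medians lie between 587 and 755 CP10K, and the points of all 4 libraries fill the same range.

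Few cells stood at the edge of the rule. Between 20 and 25 CP10K there were 7 K cells, with a median of 4 Gip UMIs, and their summed Chga and Chgb, chromogranins of secretory granules, came to 10122 CPM, which are UMIs scaled to a total of 1e+06. Just outside, 12 cells passing quality control held 15 to 20 CP10K of Gip, with a summed Chga and Chgb of 2856 CPM. A further 28 cells held 10 to 15 CP10K, with a median of 1 Gip UMI and a higher sum of 6153 CPM. Gip passed 20 CP10K in a further 53 cells in which another of the 6 hormones was higher, in 3 cells with a tie and in 2 cells with Neurog3. None of these was counted as a K cell. The endocrine markers of the K cells were present in all 4 libraries, with means of 14221 ± 935 CPM for Chgb, 443 ± 57.3 CPM for Neurod1 and 459 ± 54.5 CPM for Scg2 (SD, n = 4). A set of 273 cells rich in enterocyte markers, in which none of the 6 hormones had passed the rule, was also examined. That choice had already removed nearly every cell at 20 CP10K of Gip. The 0 of 273 that reached this level was therefore set by the choice and does not measure free RNA. The median depth of the 273 cells was 3764.5 and 4631 UMIs in 2D-1 and 2D-2, against 13558 and 15348 UMIs in 0D-1 and 0D-2.

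K cells often carried a second peptide transcript. Sct, which encodes secretin, reached 20 CP10K in 242 of the 347 K cells (69.7%). Cck, which encodes cholecystokinin, did so in 139 cells (40.1%), always below Gip by the rule. By library, 44 of 88 and 41 of 126 K cells of 2D-1 and 2D-2 had Cck at this level, against 33 of 67 and 21 of 66 in 0D-1 and 0D-2, so the share varied more within each group than between them. Other peptides were rare: Gcg reached 20 CP10K in 6 K cells, Pyy in 5, Sst in 4, Ghrl in 1 and Tac1 in 1. Nts and Tph1, the enzyme of serotonin synthesis, did so in 0 of 347 cells, which allows up to 0.865%. None of the 273 cells rich in enterocyte markers reached 20 CP10K of Sct, Pyy, Tac1 or Tph1. For Gcg, Cck, Sst, Ghrl and Nts the same result was nearly fixed, because those cells were chosen with no hormone passing the rule.

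Transcripts of neighbouring secretory cells were present among the K cells, and more K cells of the 2D libraries passed a cutoff for them, while their summed level did not separate the groups. Paneth or goblet markers reached 200 CP10K in 13 and 40 K cells of 2D-1 and 2D-2 (14.8% and 31.7%). In 0D-1 and 0D-2 they did so in 6 and 4 K cells (8.96% and 6.06%). Cells led by another of the 6 hormones had shares of 24.1% and 23.9% in 2D-1 and 2D-2, against 8.03% and 9.04% in 0D-1 and 0D-2. The median K cell had 48.0 and 66.1 CP10K of Paneth markers in 2D-1 and 2D-2, against 23.7 and 34.8 in 0D-1 and 0D-2. For goblet markers the medians were 23.9 and 40.2 CP10K against 16.9 and 19.6. Cells above 20000 UMIs, 8 and 3 in 2D-1 and 2D-2 against 6 and 3 in 0D-1 and 0D-2, held 40.9% and 13.7% of the K cell UMIs in 2D-1 and 2D-2, against 37.9% and 16.1% in 0D-1 and 0D-2. The 10 Paneth markers summed to 64553 and 12865 CPM in the K cells of 2D-1 and 2D-2. In 0D-1 and 0D-2 they summed to 62898 and 5166 CPM, so the sums followed single libraries and not the groups. The 10 goblet markers summed to 14961 and 26491 CPM in 2D-1 and 2D-2, against 16030 and 8041 CPM in 0D-1 and 0D-2. Immune markers were nearly absent, with 1 and 3 UMIs in 2D-1 and 2D-2 against 5 and 4 in 0D-1 and 0D-2, and 9 to 11 of the 12 genes at 0 in each library.

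K cells were more frequent in the 2D libraries than in the 0D libraries among all cells, but not among hormone cells. They made up 1.25% (95% exact binomial interval 1.01% to 1.54%) of the cells passing quality control in 2D-1 and 1.58% (1.32% to 1.88%) in 2D-2. In 0D-1 they made up 0.883% (0.685% to 1.12%) and in 0D-2 0.925% (0.716% to 1.18%). The mean share was 1.42% ± 0.230 in 2D and 0.904% ± 0.0298 in 0D (SD, n = 2 each), a ratio of 1.56. Both 2D libraries lay above both 0D libraries, with p = 0.333 by a two-sided exact permutation test, the smallest value that 2 against 2 libraries can give. When K cells with 200 CP10K or more of Paneth or goblet markers were not counted, the shares were 1.07% and 1.08% in 2D-1 and 2D-2, against 0.804% and 0.869% in 0D-1 and 0D-2, a ratio of 1.28. A share of cells reflects the other cells of the library as well as the K cells, and the 2 cannot be told apart. The intervals cover counting error only.

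Of the hormone cells, in which any of the 6 hormones passed the same rule (329 and 373 cells in 2D-1 and 2D-2, against 204 and 243 in 0D-1 and 0D-2), K cells made up 26.7% and 33.8% in 2D-1 and 2D-2, against 32.8% and 27.2% in 0D-1 and 0D-2. The means were 30.3% ± 4.97 in 2D and 30.0% ± 4.02 in 0D (SD, n = 2 each), the groups overlapped, and the exact permutation test gave p = 1. The largest class was that of cells whose highest hormone was Cck, with 412 cells against 347 K cells. The Cck cells made up 2.11% and 1.49% of the cells passing quality control in 2D-1 and 2D-2, against 0.817% and 1.16% in 0D-1 and 0D-2. The difference between the K and Cck classes was not tested.

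**Figure D2:**
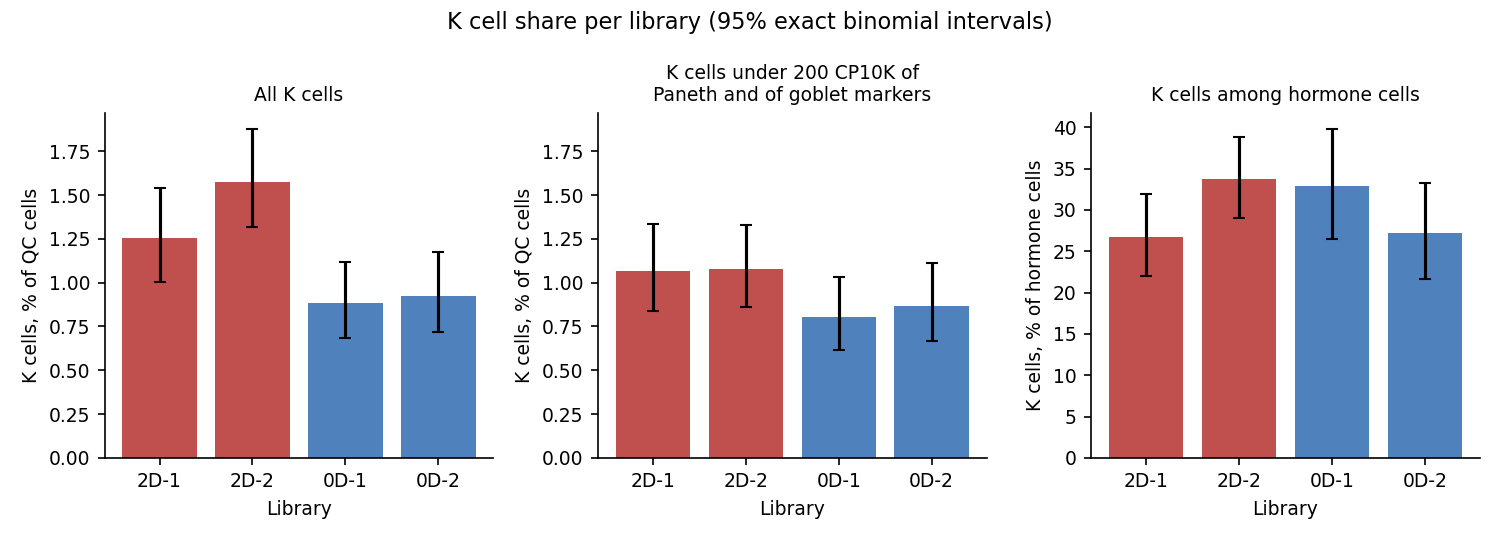
K cells as a percentage of cells passing quality control (left), the same without K cells rich in Paneth or goblet markers (middle), and as a percentage of hormone cells (right), by library with 2D left of 0D; bars are 95% exact binomial intervals. In the left panel the 2D libraries sit at 1.25% and 1.58% and the 0D libraries at 0.883% and 0.925%, whereas in the right panel the groups overlap between 26.7% and 33.8%.

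The K cells were set against the 802 other hormone cells of the same 4 libraries, with UMIs summed per library and cell group and the library kept as a block. The cells had been set apart by the 7 genes of the rule, and the other genes were tested. The other hormone cells held 1922565 and 1396980 UMIs in 2D-1 and 2D-2, against 1087112 and 1359915 in 0D-1 and 0D-2. This was more than the K cells held in each library, so raw UMI counts given below are not on the same scale. By edgeR's quasi-likelihood test at an adjusted p below 0.05, 850 of 8572 genes were called (9.92%), 468 of them higher in K cells (5.46%) and 382 lower (4.46%). Without the rule's genes the counts were 467 and 377. Levels are CPM scaled by the trimmed mean of M-values (TMM) within each comparison, given as the mean over the 4 libraries ± SD. The same K cells were set against the 75 Gcg cells, where 422 of 4818 genes were called (8.76%), 188 higher in K cells (3.90%) and 234 lower (4.86%). Against the 412 Cck cells 589 of 7582 were called (7.77%), 311 higher in K cells (4.10%) and 278 lower (3.67%). These 3 comparisons share the K cell libraries, so their values stand side by side without a statistic between them.

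Among transcription factors of the endocrine lineage, 4 of 23 tested were higher in K cells and 8 were lower. Rfx6, a winged-helix factor of endocrine differentiation, had 269 and 269 CPM in the K cells of 2D-1 and 2D-2 and 267 and 283 CPM in those of 0D-1 and 0D-2. In other hormone cells it had 91.6 and 71.4 CPM in 2D-1 and 2D-2 and 80.1 and 88.2 CPM in 0D-1 and 0D-2. The 2 cell groups did not overlap, and Rfx6 was higher in K cells by 1.71 ± 0.10 on the log2 scale (SE; edgeR adjusted p = 1.84e-07). It was also higher by 2.06 against Gcg cells and by 1.55 against Cck cells (edgeR adjusted p = 4.69e-05 and 1.14e-05).

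Pdx1, a homeodomain factor of duodenum and pancreas, averaged 57.2 ± 7.95 CPM in K cells and 30.9 ± 8.61 CPM in other hormone cells, a log2 difference of 0.89 (edgeR adjusted p = 0.00341). Gcg cells, of which there were 75 against 347 K cells, held 0 UMIs of Pdx1 in all 4 libraries. The K cells held 34 and 40 UMIs in 2D-1 and 2D-2 and 29 and 29 in 0D-1 and 0D-2. Pax6, a paired-domain factor of hormone gene transcription, was higher by 0.53 and Hnf4g by 0.59 (edgeR adjusted p = 0.0313 and 0.0339), calls lost in 4 and 6 of 18 alternative settings. Isl1, a LIM homeodomain factor expressed across hormone cells, averaged 765 ± 51.9 CPM in K cells and 715 ± 54.1 CPM in other hormone cells and did not pass (log2 0.10, edgeR adjusted p = 0.658). Gata4, whose family recognises the GATA core, stood at 43.7 ± 8.70 CPM in K cells and 38.9 ± 6.03 CPM in other hormone cells and did not pass either (edgeR adjusted p = 0.694).

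The factors that were lower in K cells included those of other hormone lineages. Etv1, an ETS factor, averaged 59.0 ± 9.82 CPM in K cells and 351 ± 20.7 CPM in other hormone cells, a log2 difference of −2.55 ± 0.13 (edgeR adjusted p = 3.46e-08). Against Gcg cells its log2 difference was −4.01 and against Cck cells −2.65. Onecut3 had 1 and 2 UMIs in the K cells of 2D-1 and 2D-2 and 0 UMIs in those of both 0D libraries, against 165 to 255 UMIs per library in the other hormone cells. Lmx1a, a factor of serotonin-producing enterochromaffin cells, had 1 UMI in each K cell library, against 56, 19, 13 and 26 UMIs in the other hormone cells. Hhex, which marks somatostatin cells, was lower by log2 −1.92, Tox3 by −1.17, Nkx2-2 by −0.54 and Neurod1 by −0.39, the last a call lost in 6 of 18 alternatives. Onecut2 did not pass against all other hormone cells but was higher in K cells than in Gcg cells, 230 ± 27.7 against 41.7 ± 39.7 CPM (log2 2.37, edgeR adjusted p = 0.00154).

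Of the hormones and peptides outside the rule, 5 of 7 tested were lower in K cells and none was higher. Pyy, the peptide YY gene of distal L cells, averaged 78.8 ± 35.7 CPM in K cells and 1999 ± 118 CPM in other hormone cells (log2 −4.74, edgeR adjusted p = 1.02e-08). Iapp was lower by log2 −4.42, Gast by −2.24 and Tac1, which encodes substance P, by −2.17. Tph1 had 27 and 1 UMIs in the K cells of 2D-1 and 2D-2 and 0 UMIs in those of both 0D libraries, against 111 to 379 UMIs per library in the other hormone cells. Sct was abundant in both, with 4552 ± 227 CPM in K cells and 3953 ± 546 CPM in other hormone cells (log2 0.21, edgeR adjusted p = 0.169). Of 9 enterochromaffin markers 7 were lower, with a median log2 difference over the 9 of −2.31, against 0.00 over all genes tested.

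The secretory granule list was split, with 5 of 30 tested genes higher and 10 lower in K cells. The chromogranins went opposite ways. Chgb averaged 14221 ± 935 CPM in K cells and 9857 ± 1540 CPM in other hormone cells (log2 0.54 ± 0.08, edgeR adjusted p = 0.000572). Chga had 338 and 173 CPM in the K cells of 2D-1 and 2D-2 and 160 and 201 CPM in those of 0D-1 and 0D-2. In other hormone cells it had 3175 and 1817 CPM in 2D-1 and 2D-2 and 1387 and 2007 CPM in 0D-1 and 0D-2. No K cell value of Chga came near these, and the log2 difference was −3.27 ± 0.10 (edgeR adjusted p = 3.42e-10).

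The other granule genes that were higher were Scg5, the 7B2 chaperone of prohormone convertase 2 (log2 0.57), Pam, the peptide-amidating enzyme (0.49), Ptprn2, a granule membrane protein (0.44), and Pcsk1n, an inhibitor of prohormone convertase 1 (0.41). Their edgeR adjusted p lay between 0.00784 and 0.0246, and of 18 alternatives the calls of Ptprn2 and Pcsk1n were lost in 5, that of Scg5 in 3 and that of Pam in 2. Pcsk1, prohormone convertase 1 itself, averaged 217 ± 24.5 CPM in K cells and 306 ± 46.9 CPM in other hormone cells (log2 −0.49, edgeR adjusted p = 0.00799). Slc18a1, a vesicular monoamine transporter, was lower by log2 −2.10, Snap25, a SNARE of exocytosis, by −1.06, and the granin Scg2 by −0.99. Syt13, Resp18, Cadps and Cryba2 were lower by between log2 −0.85 and −0.52, with the calls of Resp18 and Cryba2 lost in 5 and 6 of 18 alternatives. Rab3c had 1 and 2 UMIs in the K cells of 2D-1 and 2D-2 and 0 UMIs in those of both 0D libraries, against 73 to 199 UMIs per library in the other hormone cells.

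**Figure D3:**
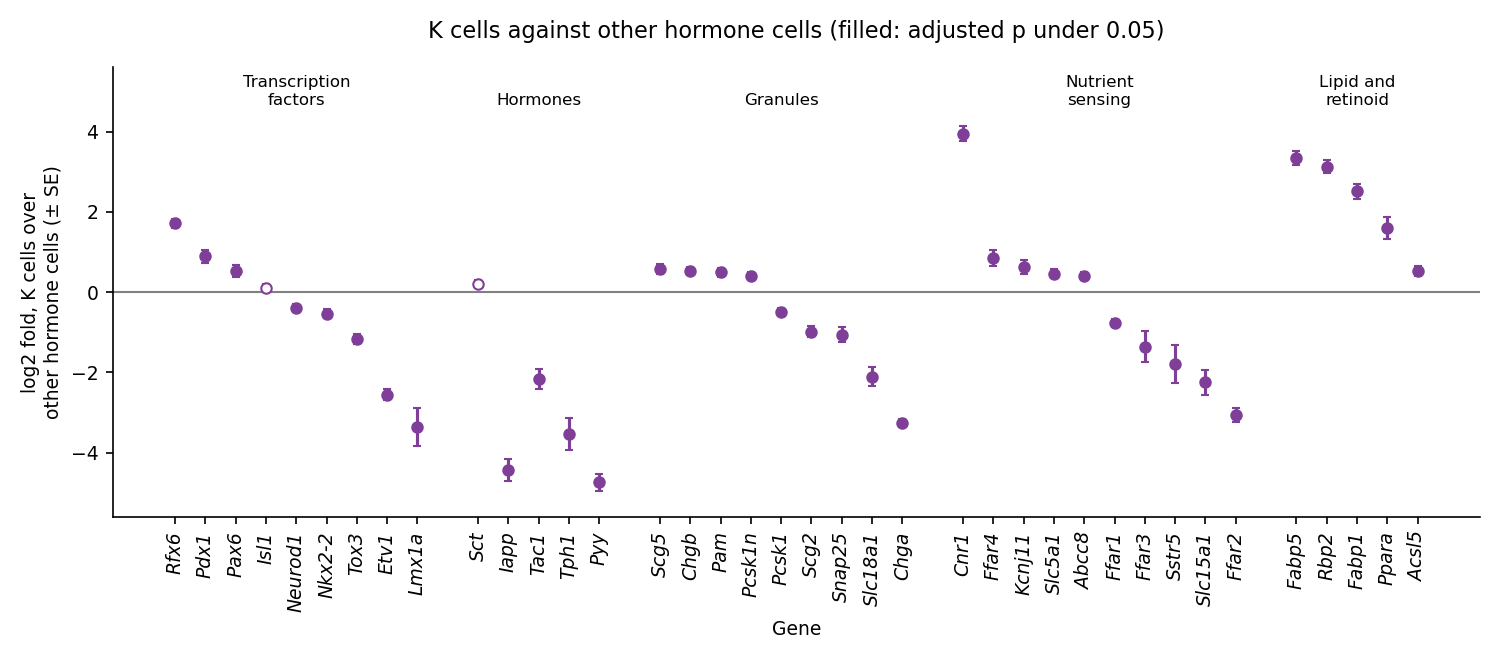
Log2 difference of K cells over other hormone cells for a selection of the listed genes, grouped by role, with the standard error as a bar; filled points passed edgeR's test at an adjusted p below 0.05 and open points did not. Of the genes plotted, Cnr1, Fabp5 and Rbp2 stand highest, at 3.95, 3.34 and 3.13, and Pyy and Iapp lowest, at −4.74 and −4.42.

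In the list of nutrient sensing and excitability, 8 of 23 tested genes were higher in K cells and 6 were lower. Cnr1, the cannabinoid receptor CB1, had 154 and 194 CPM in the K cells of 2D-1 and 2D-2 and 218 and 248 CPM in those of 0D-1 and 0D-2. In other hormone cells it had 15.4 and 5.71 CPM in 2D-1 and 2D-2 and 14.6 and 14.9 CPM in 0D-1 and 0D-2. Every K cell library thus stood far above every other sum, with a log2 difference of 3.95 ± 0.19 (edgeR adjusted p = 1.88e-08). The difference was 3.64 against Gcg cells and 3.31 against Cck cells.

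Genes of glucose uptake and excitability were higher by smaller amounts. Kcnj11 and Abcc8, the subunits of the ATP-sensitive potassium channel, were higher by 0.63 and 0.41, and Slc5a1, the sodium-glucose cotransporter SGLT1, by 0.46. The L-type calcium channel subunit Cacna1c was higher by 0.91 and the galanin receptor Galr1 by 0.68. Their edgeR adjusted p lay between 0.0243 and 0.0359. Each of these 5 calls was lost in 5 to 8 of the 18 alternative settings.

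The fatty acid receptors were divided. Ffar4, the receptor GPR120 for long-chain fatty acids, averaged 51.4 ± 12.5 CPM in K cells and 29.0 ± 5.33 CPM in other hormone cells (log2 0.85, edgeR adjusted p = 0.0134), a call lost in 4 of 18 alternatives. Ffar1, the receptor GPR40, was lower by log2 −0.77 (117 ± 21.6 against 197 ± 30.4 CPM, edgeR adjusted p = 0.00041). The short-chain fatty acid receptor Ffar2 averaged 17.2 ± 5.28 CPM in K cells and 144 ± 8.55 CPM in other hormone cells (log2 −3.06, edgeR adjusted p = 9.59e-08), and Ffar3 was lower by log2 −1.36, a call lost in 9 of 18 alternatives. Slc15a1, the peptide transporter PEPT1, was lower by log2 −2.25 and by −4.70 against Gcg cells. Sstr5, a somatostatin receptor, was lower by log2 −1.78, and the sodium channel Scn3a by −0.85.

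Genes of lipid binding were among the most divergent. Fabp5, a fatty acid binding protein, had 8218 and 10655 CPM in the K cells of 2D-1 and 2D-2 and 7867 and 9362 CPM in those of 0D-1 and 0D-2. In other hormone cells it had 1164 and 657 CPM in 2D-1 and 2D-2 and 1052 and 749 CPM in 0D-1 and 0D-2. The ranges lay far apart, and the log2 difference was 3.34 ± 0.17 (edgeR adjusted p = 3.65e-08). Rbp2, a cellular retinol binding protein, averaged 2486 ± 189 CPM in K cells and 291 ± 85.7 CPM in other hormone cells (log2 3.13, edgeR adjusted p = 1.97e-08). Of 17 lipid genes tested 4 were higher and 0 lower by edgeR, namely Fabp5, Fabp1 (log2 2.52), the lipid-sensing nuclear receptor Ppara (1.59) and Acsl5, an acyl-CoA synthetase (0.52).

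Rbp2 and Fabp1 are also abundant in enterocytes, and the whole list of 12 enterocyte markers, which contains both, was summed. The sum is therefore not independent of them. It came to 3738 and 4265 CPM in the K cells of 2D-1 and 2D-2 and 3726 and 4540 CPM in those of 0D-1 and 0D-2. In other hormone cells it came to 1674 and 1561 CPM in 2D-1 and 2D-2 and 1857 and 1833 CPM in 0D-1 and 0D-2. Of its 8 tested genes 3 were higher in K cells (Rbp2, Fabp1 and Slc5a1), and 2 were lower, the brush-border enzymes Anpep (log2 −1.22) and Sis (−0.49). Of 6 tested genes of the proximal gut 3 were higher, Fabp1, Adh6a (1.42) and Ces2e (1.03), and 0 lower by edgeR, with a median log2 difference over the 6 of 0.68. The call of Ces2e was lost in 8 of 16 alternatives. The 3 tested genes of the distal gut also lay above 0, with a median of 1.23 and 0 calls by edgeR and DESeq2 (2 at an unadjusted edgeR p below 0.05), so the region lists went the same way.

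Other genes with the smallest p in the K cell direction came from several functions. Cd44, a hyaluronan receptor, averaged 350 ± 19.2 CPM in K cells and 54.6 ± 12.7 CPM in other hormone cells (log2 2.68, edgeR adjusted p = 8.70e-09). Pkib, an inhibitor of protein kinase A, was higher by 4.06, Gpx3, a secreted glutathione peroxidase, by 2.42, Rcn1, a calcium-binding protein of the endoplasmic reticulum, by 2.33, and Phlda1 by 1.77. Pdk4, a kinase that restrains pyruvate dehydrogenase, averaged 68.4 ± 20.6 CPM in K cells and 4.65 ± 2.60 CPM in other hormone cells (log2 3.90, edgeR adjusted p = 5.83e-07). Nnat had 28 and 27 UMIs in the K cells of 2D-1 and 2D-2 and 26 and 36 in those of 0D-1 and 0D-2, against 1, 0, 0 and 1 UMIs in other hormone cells. These UMIs came from only 9, 7, 4 and 5 K cells. In the opposite direction stood Krt20, a keratin of differentiated epithelium, with 38.0 ± 13.6 CPM in K cells and 776 ± 115 CPM in other hormone cells (log2 −4.37, edgeR adjusted p = 6.34e-09). The transthyretin gene Ttr was lower by log2 −2.56, Parm1 by −2.53 and Fars2 by −2.47.

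Cdkn1c, the cell-cycle inhibitor p57, is a marker of endocrine progenitors and was higher in K cells than in each comparison class. It averaged 1093 ± 91.3 CPM in K cells and 501 ± 12.8 CPM in other hormone cells (log2 1.12, edgeR adjusted p = 4.02e-06), and the difference was 2.65 against Gcg cells and 1.38 against Cck cells. Of the 9 tested progenitor genes 2 were higher, Cdkn1c and Gadd45a (0.93), and 3 were lower, Cbfa2t3 (−1.03), Hes6 (−0.53) and Cdkn1a (−0.52). The call of Hes6 was lost in 7 of 18 alternatives. Smoc2, listed as a stem cell marker, was higher by 1.35, while the dividing-cell list had 0 calls among 10 genes by edgeR and DESeq2 (0 at an unadjusted edgeR p below 0.05) and a median of 0.26. Against Gcg cells, 3 of 4 tested dividing-cell markers were higher in K cells (median log2 difference 1.36). So were 2 of 3 stem markers (2.37) and 5 of 9 goblet markers (0.98). All 10 Paneth markers lay above 0 as well (1.14), with 0 calls by edgeR and DESeq2 (0 at an unadjusted edgeR p below 0.05). Gcg cells numbered 23 and 16 in 2D-1 and 2D-2, against 16 and 20 in 0D-1 and 0D-2. The part of RNA from other cell types in these values was not tested.

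Protein folding genes of the endoplasmic reticulum were higher in K cells, with 10 of 18 called and 0 lower by edgeR, and a median log2 difference over the 18 of 0.48. The co-chaperone Dnajb9 averaged 97.4 ± 38.0 CPM in K cells and 50.8 ± 15.2 CPM in other hormone cells (log2 0.91, edgeR adjusted p = 0.00126). The GRP94 chaperone Hsp90b1 was higher by 0.55, Manf by 0.55 and calreticulin, Calr, by 0.52. Immediate early genes, which respond within minutes to signals and to tissue dissociation, stood the other way. All 17 tested lay below 0, 13 of them called, with a median of −0.57. Atf3 averaged 220 ± 99.1 CPM in K cells and 557 ± 133 CPM in other hormone cells (log2 −1.39, edgeR adjusted p = 9.22e-05), Nr4a1 was lower by log2 −1.28, Egr1 by −0.72 and Fos by −0.54.

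K cells also varied among themselves along their Gip level. To describe this, 78 cells rich in Paneth or goblet markers or above 20000 UMIs were set aside, and the other 269 were split by Gip into 3 equal groups within each library, with median Gip of 176, 895 and 2162 CP10K. Levels here are CPM without the rule's genes in the total, in the order lower, middle and upper group, and they carry no test because Gip made the groups. Fabp5 stood at 10173, 14866 and 17612 CPM, and the order held in all 4 libraries. Rbp2 stood at 2772, 3772 and 5055 CPM, likewise in all 4. Cnr1 stood at 137, 355 and 474 CPM, also in all 4, and Pdk4 at 22.2, 123 and 200 CPM. Pax6 stood at 418, 582 and 707 CPM and Abcc8 at 196, 260 and 347 CPM.

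Not every K cell gene followed Gip. Rfx6 stood at 380, 454 and 458 CPM, nearly level between the middle and the upper group. Sct stood at 7526, 8015 and 4123 CPM and was lowest in the upper group in all 4 libraries. Cck stood at 2322, 7090 and 2656 CPM, but the rule keeps it below Gip in every K cell and so caps it in the lower group. Chgb stood at 21850, 26383 and 17119 CPM. Cd74, the invariant chain of MHC class II, stood at 307, 166 and 70.4 CPM, and the proliferation marker Mki67 at 109, 7.09 and 16.2 CPM. Median depth hardly differed, at 5019, 5107.5 and 5153 UMIs per cell, while the median doublet score was 0.0528, 0.0700 and 0.122.

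Between 2D and 0D few genes of the K cells passed the test, and none of the genes described above as higher in K cells was among them. Of 7294 genes tested on the summed UMIs, edgeR called 3 (0.0411%), 1 higher in 2D (0.0137%) and 2 lower (0.0274%). At an unadjusted p below 0.05 there were 371 genes. DESeq2 called 2 genes, both of them among the 3, with 50 genes at an unadjusted p below 0.05. For 34.3% of all genes the 2D libraries did not overlap the 0D libraries. Rfx6 had 263 and 260 CPM in 2D-1 and 2D-2, against 264 and 277 CPM in 0D-1 and 0D-2, and Sct had 4490 and 4530 CPM in 2D against 4652 and 4128 CPM in 0D. Fabp5 had 8052 and 10294 CPM in 2D-1 and 2D-2, against 7762 and 9151 CPM in 0D-1 and 0D-2. The groups overlapped for Sct and Fabp5, and the 2D values of Rfx6 lay just below those of 0D. The log2 differences were −0.05 for Rfx6, 0.04 for Sct and 0.12 for Fabp5, and none passed (edgeR adjusted p = 0.999, 0.999 and 0.992).

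The most stable of the 3 calls was Gm42418 (ENSMUSG00000098178, chr17:39846958-39848788 on the plus strand, GRCm38), a lincRNA model, named after its values were seen, that lies over ribosomal RNA repeat sequence. Reads of such repeats map to several copies, so its level is uncertain. It fell to 5012 and 5119 CPM in 2D-1 and 2D-2, against 16521 and 21084 CPM in 0D-1 and 0D-2, a log2 difference of −1.89 ± 0.25 (edgeR adjusted p = 0.0167). Every K cell held UMIs of it, and no single cell gave more than 11.1% of a library's UMIs. The call held in all 18 alternative settings, with log2 differences of −2.29 to −1.69. AY036118, a second transcript model of this kind, had 282 and 261 CPM in 2D-1 and 2D-2 against 481 and 627 CPM in 0D-1 and 0D-2 and did not pass (log2 −1.03, edgeR adjusted p = 0.263).

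A difference in Gm42418 was also measured outside the K cells. In the other hormone cells it stood at 5119 and 4573 CPM in 2D-1 and 2D-2, against 15538 and 18438 CPM in 0D-1 and 0D-2. The change in K cells minus the change in other hormone cells was −0.07 ± 0.12 on the log2 scale (edgeR adjusted p = 1). Lars2, mitochondrial leucyl-tRNA synthetase, had 331 and 366 CPM in 2D-1 and 2D-2 against 630 and 749 CPM in 0D-1 and 0D-2. The ranges lay apart but the gene did not pass (log2 −0.98 ± 0.19, edgeR adjusted p = 0.263), and its difference of changes was −0.06.

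Olfm4, a secreted glycoprotein of crypt stem cells, had 98.6 and 61.3 CPM in 2D-1 and 2D-2, against 322 and 343 CPM in 0D-1 and 0D-2. The groups did not overlap, and it fell by a log2 difference of −2.04 ± 0.22 (edgeR adjusted p = 0.00514). The UMIs came from 15 and 15 K cells in 2D-1 and 2D-2 and from 14 and 10 K cells in 0D-1 and 0D-2. A single cell held 56.2% and 20.5% of them in 2D-1 and 2D-2 and 70.8% and 72.9% in 0D-1 and 0D-2. Without K cells above 20000 UMIs the log2 difference was −0.85 (edgeR adjusted p = 0.710), and without the 8% of cells with the highest doublet scores it was −0.65 (edgeR adjusted p = 0.994). At a Gip floor of 10 CP10K and without cells rich in Paneth or goblet markers the log2 difference stayed at −2.25 and −1.99 but did not pass (edgeR adjusted p = 0.166 and 0.953).

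Tac1, an enterochromaffin peptide gene, had 174 and 127 CPM in 2D-1 and 2D-2, against 37.7 and 45.5 CPM in 0D-1 and 0D-2. Both 2D libraries stood above both 0D libraries, and it rose by 1.86 ± 0.24 on the log2 scale (edgeR adjusted p = 0.0141). The UMIs came from 21 and 26 K cells in 2D-1 and 2D-2 and from 11 and 15 K cells in 0D-1 and 0D-2, and 1 cell held 62.0% of those in 2D-1. The call was lost in 7 of 18 alternatives, with a log2 difference of 0.70 without the highest doublet scores. In others the size held but the test did not pass: 1.73 with 0D-1 left out (edgeR adjusted p = 0.184), 2.01 with 0D-2 left out (edgeR adjusted p = 0.0994) and 1.87 by DESeq2 (adjusted p = 0.106).

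**Figure D4:**
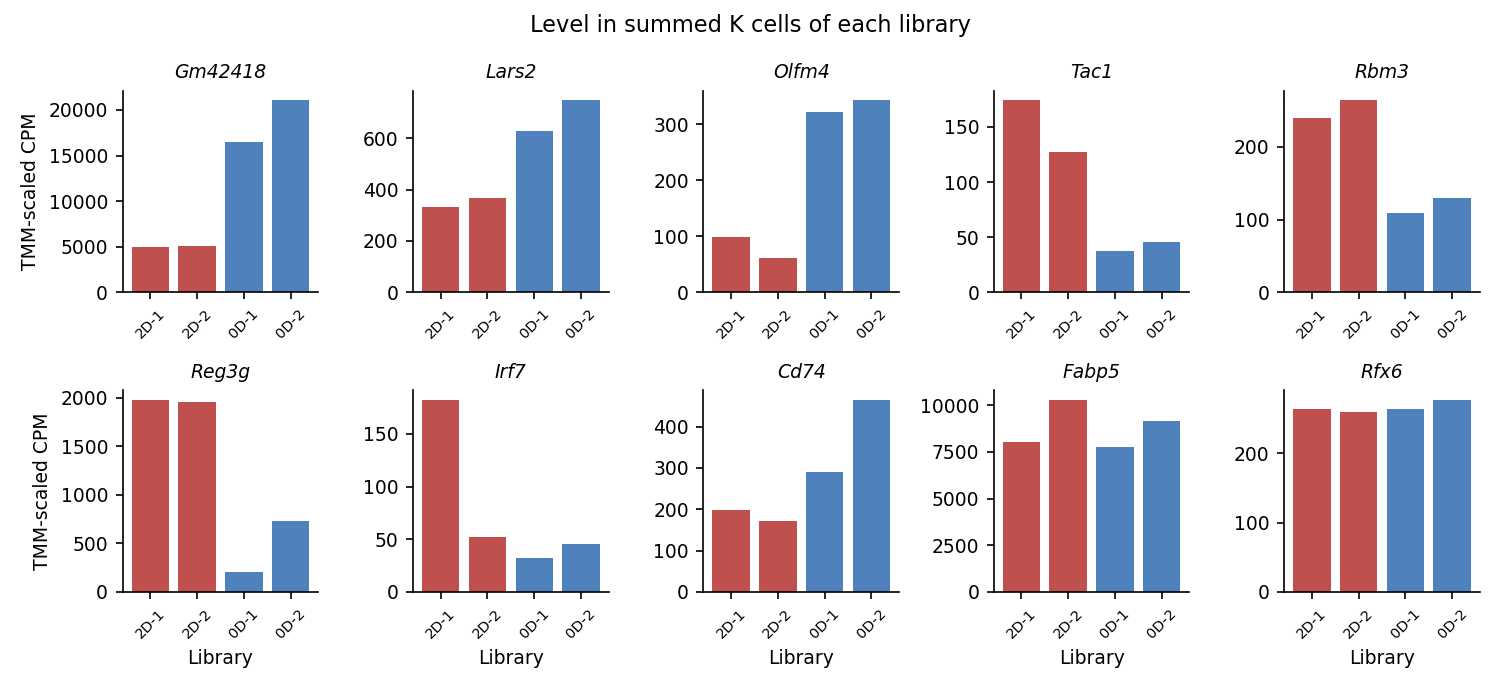
TMM-scaled CPM in the summed K cells of each library for 10 named genes, 2D libraries left of 0D libraries; bars start at 0. Gm42418, Lars2 and Olfm4 are lower and Tac1 and Rbm3 higher in both 2D libraries, Irf7 is high in 2D-1 only, and Rfx6 and Fabp5 are level.

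The genes with the next smallest p did not pass. Rbm3, a cold-inducible RNA-binding protein, had 239 and 264 CPM in 2D-1 and 2D-2, against 109 and 130 CPM in 0D-1 and 0D-2 (log2 1.07 ± 0.19, edgeR adjusted p = 0.148). Its UMIs came from 54 and 77 K cells in 2D-1 and 2D-2 and from 25 and 30 in 0D-1 and 0D-2, so many cells contributed. Without 2D-1 or without 2D-2 its edgeR adjusted p was 0.0121 or 0.0144, with 1 library left to stand for 2D. Reg3g, an antibacterial lectin, had 1981 and 1955 CPM in 2D-1 and 2D-2, against 207 and 734 CPM in 0D-1 and 0D-2 (log2 2.07 ± 0.42, edgeR adjusted p = 0.284). A single K cell held 28.9% and 47.0% of its UMIs in 2D-1 and 2D-2 and 48.2% and 82.3% in 0D-1 and 0D-2. It passed in 8 of 18 alternatives, among them those without 0D-2 (log2 3.26, edgeR adjusted p = 0.0012), without the highest doublet scores (2.93, edgeR adjusted p = 0.00114) and without cells above 20000 UMIs (2.32, edgeR adjusted p = 0.00159). Spink1 and Sin3b, with log2 differences of 2.21 and 0.88, complete the 5 genes with the smallest p in this direction.

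In the lower direction the replication histone genes Hist1h4d and Hist1h1e had log2 differences of −1.37 and −0.94 and did not pass (edgeR adjusted p = 0.334 and 0.391). With K cells above 20000 UMIs left out, edgeR called 22 genes, of which 1, Gm42418, was among the 3 calls above. That choice was made after seeing the data.

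Gene lists were read by their counts and medians, beside a median of 0.00 over all genes tested. Among 20 endocrine transcription factors 14 lay above 0 and 6 below, with a median log2 difference of 0.09, and edgeR called 0 of them (3 at an unadjusted p below 0.05, 0 by DESeq2). Among 28 granule genes 18 lay above 0 and 10 below, with a median of 0.10 and 0 calls (1 at an unadjusted p below 0.05, 0 by DESeq2). The 19 genes of nutrient sensing had a median of −0.01 and the 16 lipid genes one of −0.03, with 0 calls by edgeR or DESeq2 and 2 and 3 genes at an unadjusted p below 0.05. Cnr1, for example, had 151 and 187 CPM in 2D-1 and 2D-2, against 215 and 242 CPM in 0D-1 and 0D-2 (log2 −0.43, edgeR adjusted p = 0.964).

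MHC class II genes, which present antigen and are also expressed by intestinal epithelium, lay lower in 2D without passing. All 4 tested had their 2D libraries below their 0D libraries, and the median log2 difference was −1.32. Of all genes, 34.3% had groups apart in either direction. H2-Eb1 had 20.3 and 12.6 CPM in 2D-1 and 2D-2, against 50.9 and 74.4 CPM in 0D-1 and 0D-2 (log2 −1.89 ± 0.37, edgeR adjusted p = 0.263). Cd74 had 197 and 171 CPM in 2D-1 and 2D-2, against 290 and 465 CPM in 0D-1 and 0D-2 (log2 −1.03, edgeR adjusted p = 0.391). EdgeR and DESeq2 called 0 of the 4, and all 4 had an unadjusted edgeR p below 0.05. The immune markers named above were at or near 0 in these cells. In cells passing quality control with no hormone class, the 7 listed MHC class II genes also summed lower in 2D. They came to 447 and 450 CPM in 2D-1 and 2D-2, against 793 and 1067 CPM in 0D-1 and 0D-2. The part of RNA from other cells in the K cell values was not tested. The change of Cd74 in K cells minus its change in other hormone cells was −0.02 on the log2 scale. Of the 6 MHC class II genes tested for this difference of changes, 1 lay above 0 and 5 below, with a median of −0.39. EdgeR and DESeq2 called 0 of the 6, with 1 at an unadjusted edgeR p below 0.05.

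Interferon response genes were high in the 2D-1 library alone. All 15 tested lay above 0, with a median log2 difference of 0.96, but the per-library medians relative to the 0D mean were 1.57 and −0.11 in 2D-1 and 2D-2, against −0.11 and 0.11 in 0D-1 and 0D-2. Irf7, the interferon-induced transcription factor, had 182 and 51.9 CPM in 2D-1 and 2D-2, against 32.0 and 45.5 CPM in 0D-1 and 0D-2 (log2 1.63, edgeR adjusted p = 0.872). Isg15 had 120 and 7.86 CPM in 2D-1 and 2D-2, against 11.3 and 16.5 CPM in 0D-1 and 0D-2, so the 2D libraries lay on both sides of the 0D libraries. EdgeR and DESeq2 called 0 of the 15, with 7 at an unadjusted edgeR p below 0.05. The same library stood apart in the other hormone cells, where Irf7 had 217 and 37.4 CPM in 2D-1 and 2D-2, against 28.7 and 31.6 CPM in 0D-1 and 0D-2.

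Protein folding genes of the endoplasmic reticulum all lay above 0, 18 of 18, with a small median of 0.28. The per-library medians were 0.09 and 0.51 in 2D-1 and 2D-2, against 0.06 and −0.06 in 0D-1 and 0D-2, so the median shift lay mainly in 2D-2. For 10 of the 18 genes the 2D libraries did not overlap the 0D libraries, against 34.3% of all genes, counted in either direction. Xbp1, a transcription factor of secretory capacity, had 165 and 214 CPM in 2D-1 and 2D-2, against 115 and 114 CPM in 0D-1 and 0D-2 (log2 0.72, edgeR adjusted p = 0.767). EdgeR and DESeq2 called 0 of the 18, with 5 at an unadjusted edgeR p below 0.05. For the change in K cells minus the change in other hormone cells, 9 of the 18 lay above 0 and 9 below. The median of that difference was −0.003, with 0 calls by edgeR and DESeq2 (0 at an unadjusted edgeR p below 0.05). The 10 goblet markers, whose cells also have a large secretory apparatus, all lay above 0 too, with a median of 0.78 and per-library medians of 0.46 and 1.20 in 2D-1 and 2D-2, against 0.49 and −0.49 in 0D-1 and 0D-2. The part of goblet RNA in the folding genes was not tested.

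The 6 tested stem markers all lay below 0, with a median of −0.60, and Olfm4 was the 1 call among them. Of 9 dividing-cell markers 8 lay below 0, with a median of −0.56 and 0 calls by edgeR or DESeq2 (0 at an unadjusted edgeR p below 0.05). Mki67 had 157 and 15.7 CPM in 2D-1 and 2D-2, against 209 and 170 CPM in 0D-1 and 0D-2, so 2D-1 stood far nearer to the 0D libraries than 2D-2 did. Clock genes were mostly under the filter, with 4 of 19 tested and a median of −0.21. The 9 tested glucocorticoid-responsive genes had a median of −0.03. In both lists edgeR and DESeq2 called 0, with 1 gene each at an unadjusted p below 0.05. Median log2 differences were 0.30 over 10 cold-inducible and heat shock genes, 0.17 over 16 immediate early genes, 0.12 over 9 genes of MHC class I and 0.08 over 13 mitochondrially encoded genes. In these 4 lists edgeR and DESeq2 called 0, with 3, 1, 0 and 1 genes at an unadjusted edgeR p below 0.05.

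**Figure D5:**
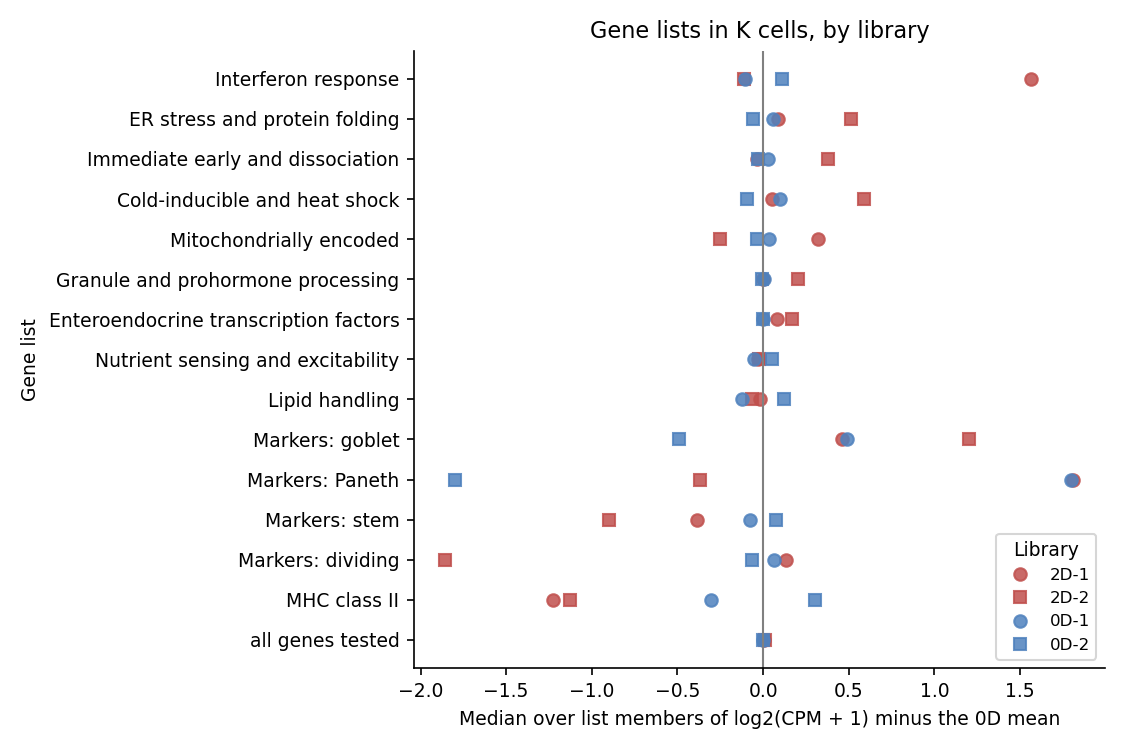
Median over each gene list of log2(CPM + 1) in the summed K cells of a library minus the mean of the 0D libraries, 2D libraries given before 0D libraries. The MHC class II median is −1.23 and −1.13 in 2D-1 and 2D-2 against −0.30 and 0.30 in 0D-1 and 0D-2, whereas the interferon median departs from 0 in 2D-1 only, at 1.57.

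The last comparison asked whether any gene changed differently in K cells than in the other hormone cells, by the cell group by condition term. EdgeR called 6 of 9402 genes (0.0638%), all with the more positive change in K cells, and 349 at an unadjusted p below 0.05. DESeq2 called 0, with 29 at an unadjusted p below 0.05. Of the 6, Ghrl is a gene of the rule, and the others were Reg3g, Reg3b, Apol10a, Car4 and Gm43305. Reg3g had 2011 and 1998 CPM in the K cells of 2D-1 and 2D-2, against 211 and 748 CPM in those of 0D-1 and 0D-2. In other hormone cells it had 1098 and 578 CPM in 2D-1 and 2D-2, against 637 and 936 CPM in 0D-1 and 0D-2. The difference of changes was 2.26 ± 0.34 on the log2 scale (edgeR adjusted p = 0.0238), a call kept in 10 of 17 alternatives. Olfm4 and Tac1, called within K cells, did not pass here, with differences of −1.19 and 1.47 (edgeR adjusted p = 0.703 and 0.451), and neither did Rbm3, at 0.30.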

How the data were processed

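The values are raw UMI counts per gene and cell, deposited by the authors as 1 matrix of 32285 genes per library. Cell Ranger 7.0.0 wrote the matrices per the file headers, while Cell Ranger 2.1.1 and the mm10 build are named per the submitters' processing notes. The library chemistry was the 10x 3′ kit, version 2, per the labels' protocols. Whether intronic reads were counted is not given in the sources used here.

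The K cells, the gene lists and the comparisons were chosen with earlier results of these data known. Cells below 500 genes or above 20% mitochondrial UMIs were left out. No doublets were removed in the reported values. Scrublet scores (scanpy 1.11.5) ranked cells per library, and the 8% with the highest scores were left out as an alternative. Of 407 listed symbols 3 were not matched and 1 was matched by a synonym.

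UMIs were summed per library and cell group and tested with edgeR 4.0.16 (filterByExpr, TMM, quasi-likelihood test, R 4.3.3), with Benjamini-Hochberg adjustment over all genes tested and a threshold of 0.05. Comparisons between cell groups had the library as a block. DESeq2 1.42.0 was an alternative, beside RLE scaling, no filter on low counts, other floors of Gip (10 and 100 CP10K), 10 Gip UMIs, 2000 UMIs, 10% mitochondrial UMIs, no condition on Neurog3, left-out libraries and the replicate block. Leaving out cells above 20000 UMIs, or rich in Paneth or goblet markers, was chosen after seeing the data. Levels are TMM-scaled within a comparison, so those of K cells differ slightly between comparisons. Shares were compared by two-sided exact permutation over libraries (scipy 1.17.1).

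Genes were named if they were in a list or had the smallest p of their comparison and direction: 10 where enough were called with the groups apart, otherwise 5. Genes with Gm or Rik names were skipped by this rule. Gm42418, Gm43305 and AY036118 fall outside it and were named after their values were seen. Promoter sequences are those of RefSeq.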

Additional observations from a re-analysis of the deposited data

Results flagged for a closer look

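For 5 genes the change between 2D and 0D differed between K cells and the other hormone cells by the test of that difference, with edgeR adjusted p below 0.05, and each difference was positive. Ghrl, which helped to choose the cells, is left out.

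Apol10a, an apolipoprotein L gene, had 72.7 and 85.2 CPM in the K cells of 2D-1 and 2D-2, against 15.3 and 42.1 CPM in those of 0D-1 and 0D-2, while other hormone cells had 5.65 and 11.3 CPM in 2D-1 and 2D-2, against 26.0 and 30.2 CPM in 0D-1 and 0D-2. The difference of changes was 3.24 ± 0.48 on the log2 scale (edgeR adjusted p = 0.0238). The UMIs came from 7 and 5 K cells in 2D-1 and 2D-2 and from 4 and 6 in 0D-1 and 0D-2, and the call was kept in 8 of 16 alternatives.

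Car4, a carbonic anhydrase, differed by 3.23 ± 0.52 (edgeR adjusted p = 0.0304), with UMIs in 6 and 6 K cells of 2D-1 and 2D-2 and in 4 and 5 of 0D-1 and 0D-2, and was kept in 8 of 16 alternatives. Gm43305 differed by 2.92 ± 0.49 (edgeR adjusted p = 0.0374), 1 cell held 94.2% of its K cell UMIs in 2D-1, and it was kept in 6 of 17 alternatives, with values down to 0.28.

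The antibacterial lectins Reg3b and Reg3g differed by 3.16 ± 0.53 and 2.26 ± 0.34 (edgeR adjusted p = 0.0374 and 0.0238), and each call was kept in 10 of 17 alternatives. Reg3b had 2862 and 4748 CPM in the K cells of 2D-1 and 2D-2, against 234 and 2243 CPM in those of 0D-1 and 0D-2. A single cell held 25.3% and 42.6% of its UMIs in 2D-1 and 2D-2 and 54.1% and 87.1% in 0D-1 and 0D-2. For the same difference of changes all 10 Paneth markers lay below 0 (median log2 −1.54, 4 at an unadjusted edgeR p below 0.05), 6 of 10 goblet markers lay above 0 (median 0.11, 3 below 0.05), and all 5 tested genes of the distal gut lay above 0 (median 2.08, 3 below 0.05), with 0 calls in these lists by edgeR and DESeq2. The part of such RNA in the values of the 5 genes was not tested.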

How the results depend on the processing

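With 2 libraries a group, and with 1 cell holding most UMIs of some genes, small differences were not detectable at this depth. Where a library is left out, the lone one is assumed to vary like the others. The difference in the K cell share of hormone cells (0.262 percentage points) was −1.87 at 2000 UMIs, −0.359 at 10 Gip UMIs, −0.337 without the highest doublet scores and −3.25 to 3.78 without single libraries. The difference in median Gip (96.0 CP10K) was −42.7 at a floor of 10 CP10K and 183 without cells rich in Paneth or goblet markers.

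Genes called between 2D and 0D in K cells (3) numbered 8 at 10% mitochondrial UMIs, 5 at a Gip floor of 100 CP10K, 22 without cells above 20000 UMIs, 64 without a filter and 5 to 40 without single libraries (38 without 2D-1, 40 without 2D-2). Against other hormone cells (850), DESeq2 called 428, and 465 to 752 were called without single libraries. Against Gcg cells (422) the counts were 749 without a filter, 275 by DESeq2 and 251 to 422 without single libraries. Against Cck cells (589) they were 994, 250 and 338 to 576. For the difference of changes (6), edgeR called 0 at 10% mitochondrial UMIs, at a Gip floor of 10 CP10K, without the Neurog3 condition and without the highest doublet scores (377, 347, 343 and 237 at an unadjusted p below 0.05), and DESeq2 called 0 (29). EdgeR called 2 without cells above 20000 UMIs, 3 without cells rich in Paneth or goblet markers, 45 without a filter and 4 to 62 without single libraries. The cause of these shifts was not tested.

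Among 2D over 0D values near 0 in K cells, Sct was −0.0125 without cells rich in Paneth or goblet markers, Chgb 0.0521 and Rfx6 0.119 at 10% mitochondrial UMIs, and Rfx6 0.0474 at a Gip floor of 100 CP10K. Without single libraries the value ran from −0.0342 to 0.129 for Sct, −0.0625 to 0.283 for Fabp5, −0.0875 to 0.909 for Chga, −0.197 to 0.0438 for Chgb and −0.308 to 0.135 for Pdx1.

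The replicate block raised the calls between 2D and 0D to 51. Over the genes tested, the log2 difference between 2D-1 and 2D-2 and that between 0D-1 and 0D-2 correlated at 0.148. Paneth sums in K cells were higher in 2D-1 and 0D-1 (64553 and 62898 CPM) than in 2D-2 and 0D-2 (12865 and 5166 CPM). The labels do not say that the numbers pair libraries, and 2 pairs are too few to settle it. Without the library block the calls were 811 against other hormone cells, 423 against Gcg cells and 545 against Cck cells.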
